A study of Equus caballus with 28 samples.

Results

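Micro-RNAs (miRNAs) of the uterine fluid (UF) were compared with those of the endometrium of the same pregnant mares 13 days after ovulation. The 10 libraries labelled as pregnant UF (5) and pregnant uterus (5), out of 28 libraries of the series, were chosen by their sample labels and not by any measured value. The mares were Warmbloods that had received hCG and had been inseminated with fresh semen of a single stallion, and an embryo was recovered in the pregnant cycles. UF was taken up by a tampon left in the uterus and was the supernatant of its centrifuged eluate. The uterus was then flushed, and the endometrial biopsy was taken last. A biopsy holds a mixture of the cell types of the mucosa. Samples with the same replicate number were treated as coming from the same mare. RNA of UF was extracted with a kit for serum and plasma, and RNA of the biopsies with a tissue kit combined with a clean-up step for small RNA. Fluid and kit therefore cannot be told apart in any value below. For comparison, 4 UF and 4 endometrial libraries of unbred cyclic control cycles of these mares at the same day were used, and 5 embryo and 5 yolk sac (YS) fluid libraries for levels only.

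A miRNA is a short single-stranded RNA that guides the Argonaute proteins to partly complementary messenger RNAs and lowers their translation or stability. Members of a family share the seed, the bases near the 5′ end that select the targets, and many are cut from shared precursors, so that neighbours in the genome are often made together. Several miRNAs are hallmarks of a cell type, such as miR-126 of endothelium, miR-451 of red blood cells and the miR-34 and miR-449 family of ciliated epithelium. miRNAs outside cells are carried in vesicles or bound to proteins. UF is the medium that the spherical, mobile equine embryo contacts before it attaches.

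The authors deposited raw read counts of 690 known and 154 predicted miRNAs. The UF libraries held between 79173 and 152860 reads (median 119492) and the endometrial libraries between 280065 and 590593 (median 337972). A single read was therefore worth between 6.54 and 12.6 CPM (reads scaled to a common library total) in UF and between 1.69 and 3.57 CPM in the endometrium. Between 193 and 214 known miRNAs had a read in UF and between 261 and 265 in the endometrium. After thinning every library to 79173 reads the numbers were 175 to 210 and 210 to 221. A level of 3 reads was taken as the smallest that the depth of a single library can show. It was 28.2 CPM on average in UF and 8.76 CPM in the endometrium, which covers counting error only. UF of mares 1 and 5 and the endometrium of mare 5 stood apart in several of the miRNAs below, and results that rest on them are given with and without them. Each CPM is a share of its library, so a value can fall because others rose, and it does not measure the amount of a miRNA per volume or per cell. By their markers the biopsies held epithelial, mesenchymal, endothelial and blood miRNAs, while in UF the miR-200 sums overlapped those of the biopsies and those of the mesenchymal and endothelial lists lay below, as given later. Levels of single miRNAs are CPM after TMM normalization, a fold difference is the ratio of the group means of these levels, and other differences are log2 fold changes of UF against endometrium from edgeR's quasi-likelihood test.

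Of 359 miRNAs tested, 121 (33.7%) were differentially expressed, that is, they passed a false discovery rate (FDR) of 0.05 and changed 2-fold or more. Of these, 49 (13.6%) were higher and 72 (20.1%) lower in UF. These counts take predicted miRNAs with nearly identical counts as separate ones. With such copies merged, 109 of 296 were called, 35 higher and 74 lower. Among the 248 known miRNAs, 24 (9.68%) were higher and 64 (25.8%) lower. The direction was the same in all 5 mares for 83 of these 88 known miRNAs, and UF and endometrium did not overlap for 76. Both counts follow in part from the calls, which were made on the same 10 libraries, and only describe the called miRNAs. Over all tested miRNAs, UF lay wholly above the endometrium for 11.1% and wholly below for 19.5%. Without UF of mare 1 and the endometrium of mare 5, an alternative chosen after seeing the data, 116 miRNAs were called, 48 higher and 68 lower. The split depended on the processing of the counts. With libraries thinned to equal depth it was 55 higher and 47 lower. It moved the other way in a fit of all 18 uterine libraries (41 higher, 80 lower) and of all 28 libraries (39 and 80). Among the known miRNAs it was 32 higher and 43 lower after thinning and 38 and 64 when they were normalized and tested alone. With edgeR's own low-count filter the known miRNAs split into 28 and 36. In the fits of 18 and 28 libraries they split into 20 and 70, and 17 and 70. Scaling by library totals moved the median log2 fold change of all tested miRNAs from −0.12 to 0.00035 and gave 58 higher and 70 lower. In 36 of the 64 known miRNAs that were lower, the mean level in UF was under that of 3 reads. The sizes of their decreases are therefore poorly determined. Of the 64, 11 had no read in UF. They passed the filter of at least 1 CPM in 5 libraries through the biopsies alone and could only come out lower.

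The most abundant miRNAs were shared. Mean levels of the 248 known miRNAs in UF and endometrium correlated across miRNAs with a Spearman coefficient of 0.871, given as a description since miRNAs are not independent replicates. let-7a, which restrains growth genes such as RAS and HMGA2 in many tissues, ranked 1 in both. It stood at 162460.0, 165525, 186763, 227565 and 131970.0 CPM in UF of mares 1 to 5 and at 230245, 187656, 261448, 176065 and 145579 CPM in their endometrium. The groups overlapped and the difference was not called (log2 fold change −0.20, SE 0.21, FDR 0.497). miR-21, an abundant miRNA of most epithelia, had 81771, 145390.0, 126669, 109056 and 94822 CPM in UF and 147751, 124728, 137820.0, 155057 and 156043 CPM in the endometrium, again without a call (log2 fold change −0.37, SE 0.19, FDR 0.148). The other abundant miRNAs common to both sets of 10 were let-7c (−0.12, SE 0.24), miR-26a (−0.19, SE 0.21), let-7f (0.04, SE 0.26), miR-10a (−0.17, SE 0.38), miR-200c (0.04, SE 0.23) and miR-27b (0.04, SE 0.22), all as log2 fold changes and none called. miR-449a and miR-34c completed the 10 most abundant miRNAs of UF and stood at ranks 28 and 34 in the endometrium. miR-10b and let-7g completed those of the endometrium. miR-10b ranked 7 there and 46 in UF. The sign of the small differences of let-7a, let-7c, let-7f, miR-26a, miR-10a, miR-27b and miR-200c turned under some of the alternatives.

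The miR-34 and miR-449 family held 5 of the 24 known miRNAs that were higher in UF. It acts in the making of multiciliated cells, where it represses the centriolar protein CP110 and the Notch pathway, and ciliated cells are part of the endometrial epithelium. Of its 6 tested members, 5 were higher (beside 9.68% of the known miRNAs), none lower and 1 was not called, with a median log2 fold change of 2.56 beside −0.43 over the known miRNAs. These counts were the same in every alternative run. In a bulk biopsy, the number of cells of a type and the RNA per cell cannot be told apart. UF was a centrifuged supernatant, and the source of its miRNAs was not tested. miR-34c stood at 16874, 21048, 28290.5, 32433 and 23811 CPM in UF of mares 1 to 5 and at 2704, 3716, 2281, 5649 and 2937 CPM in their endometrium. All UF values lay above all endometrial values, and mare 4 was highest in both. The mean was 7.08-fold higher in UF (log2 fold change 2.82, SE 0.29, FDR 2.94e-05). miR-449a stood at 26209, 24446, 32262, 35626 and 23470.3 CPM in UF and at 5063, 6997, 3530.3, 9902 and 3320.3 CPM in the endometrium, with mare 4 highest in both again and no overlap (4.93-fold, log2 fold change 2.30, SE 0.31, FDR 9.63e-05). miR-449b, its less abundant neighbour, ranged between 258 and 401 CPM in UF and between 12.2 and 67.2 CPM in the endometrium (8.92-fold, log2 fold change 3.16, SE 0.45, FDR 0.000162).

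**Figure D1:**
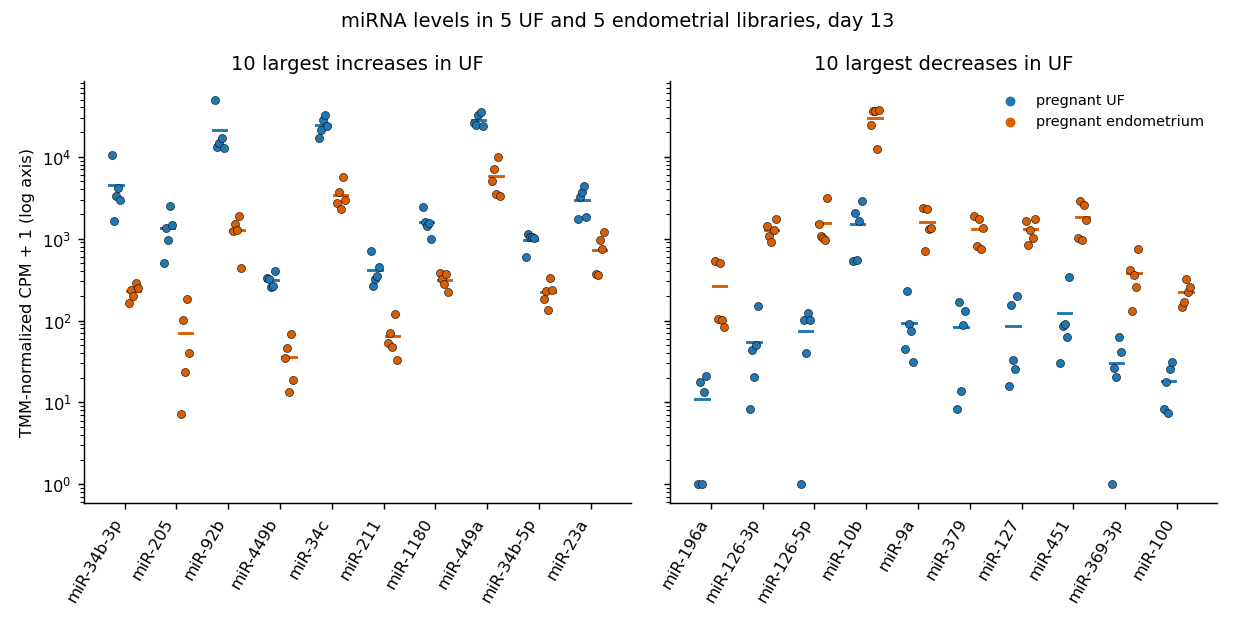
TMM-normalized CPM plus 1 (log axis) of the 10 known miRNAs with the largest increase in UF (left) and the 10 with the largest decrease (right), taken from the non-overlapping ones that averaged 100 CPM or more over the 10 libraries. Points are the 5 pregnant UF and 5 pregnant endometrial libraries, bars are means; points at the bottom of the axis are libraries with 0 reads.

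Both arms of the miR-34b precursor were measured. The 3p arm stood at 10491, 1639.9, 3353, 4207 and 2994 CPM in UF and at 165, 238, 198, 289 and 252 CPM in the endometrium (19.9-fold, log2 fold change 4.31, SE 0.46, FDR 2.94e-05). UF of mare 1 was the highest of the 3p arm, and without it the log2 fold change was 3.75. The 5p arm stood at 604, 1141, 1038, 1052 and 1031 CPM in UF and at 180.3, 229, 135, 329.5 and 238 CPM in the endometrium (4.38-fold, log2 fold change 2.13, SE 0.31, FDR 0.000165), with UF of mare 1 the lowest of the UF libraries. The ratio of 3p to 5p reads was 17.4 in that library, a median of 3.23 over the 5 UF libraries and between 0.878 and 1.47 in the endometrium. In cyclic mares the same ratio had a median of 11.8 in UF and 2.43 in the endometrium. miR-34a, the member induced by p53 in many tissues, was not called (log2 fold change 0.29, SE 0.34, FDR 0.521). It ranged between 557 and 1175 CPM in UF and between 308 and 1015 CPM in the endometrium.

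miR-205, a miRNA of basal and stratified epithelia that represses the transcription factors ZEB1 and ZEB2, showed one of the largest increases. It stood at 501, 1352, 974, 2512 and 1482 CPM in UF of mares 1 to 5 and at 6.22, 101, 22.4, 182 and 39.0 CPM in the endometrium. Mare 1 was lowest and mare 4 highest in both, and the mean was 19.5-fold higher in UF (log2 fold change 4.28, SE 0.70, FDR 0.00032). Without the endometrium of mare 4 the log2 fold change was 4.99. It was the only tested member of its list. miR-211, a relative of miR-204 made from an intron of TRPM1, had 714, 262, 316, 346 and 451 CPM in UF and 52.8, 68.4, 46.9, 118 and 31.9 CPM in the endometrium without overlap (6.57-fold, log2 fold change 2.71, SE 0.42, FDR 0.000243). miR-204b, far more abundant, had between 4133 and 12611 CPM in UF and between 6534 and 11481 CPM in the endometrium and was not called (log2 fold change −0.45, SE 0.30, FDR 0.261).

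miR-92b, which shares its seed with miR-92a and miR-25, was also higher and ranked 11 in UF against 61 in the endometrium. It stood at 49032, 13178, 14603, 16891 and 12666 CPM in UF and at 1243, 1488, 1275, 1896 and 433 CPM in the endometrium (16.8-fold, log2 fold change 4.07, SE 0.48, FDR 4.14e-05). UF of mare 1 was far above the other UF libraries, and without it the log2 fold change was 3.52, or 3.29 without the endometrium of mare 5 as well. The miRNAs of the cluster that holds miR-17 and miR-92a, and of its copies, promote cell division. Of the 13 tested members of the list, 2 were higher, miR-92b and miR-106a, beside 9.68% of the known and 13.6% of all miRNAs tested, and 11 were not called. The median log2 fold change was 0.56, and −0.09 without UF of mare 2. The call of miR-106a was marginal (log2 fold change 1.02, SE 0.32, FDR 0.0188). It was lost with DESeq2, with RLE size factors, without a low-count filter, in the fits of 18 and 28 libraries and without UF or the endometrium of mare 2, 3 or 5, with log2 fold changes between 0.86 and 0.99. The number of members called higher ran from 1 in these settings to 4 with equal depth, with filterByExpr and with known miRNAs alone. miR-92a, which differs little from miR-92b, had 11139, 8073, 5332, 9132 and 7059 CPM in UF and 4954, 4183, 7481, 6886 and 3565 CPM in the endometrium (log2 fold change 0.59, SE 0.27, FDR 0.103). miR-25 was below the endometrium in all 5 mares, but by less than the required fold (log2 fold change −0.78, SE 0.21, FDR 0.00721).

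miR-1180 had 2459, 1589, 1444, 1572 and 991 CPM in UF and 382, 318, 278, 373 and 223 CPM in the endometrium, a 5.11-fold difference with no overlap (log2 fold change 2.35, SE 0.30, FDR 7.16e-05). miR-222, which represses the cell cycle inhibitor p27, had 1642, 786, 838, 1213 and 841 CPM in UF and 227, 327, 233, 565 and 227 CPM in the endometrium (log2 fold change 1.75, SE 0.35, FDR 0.00122). Its cluster partner miR-221 was above the endometrium in all 5 mares and passed the FDR but not the fold (log2 fold change 0.92, SE 0.23, FDR 0.00626). It passed both with library totals, with edgeR's own filter, with the known miRNAs alone, with thinned libraries, and without UF of mare 1 or the endometrium of mare 4. miR-23a had 1759.5, 3212, 3694, 4418 and 1862 CPM in UF and 367, 354, 971, 749.8 and 1220.3 CPM in the endometrium (4.08-fold, log2 fold change 2.03, SE 0.40, FDR 0.00121). miR-23b was called as well (log2 fold change 1.27, SE 0.41, FDR 0.022), with overlapping groups of between 3575 and 8027 CPM in UF and between 988 and 4136 CPM in the endometrium. That call was lost on leaving out UF of mare 3 (FDR 0.0634) or the endometrium of mare 1 (FDR 0.0567), mare 2 (FDR 0.0938) or mare 4 (FDR 0.0647). The other 3 of the 5 tested members of the miR-23, miR-27 and miR-24 clusters were not called.

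**Figure D2:**
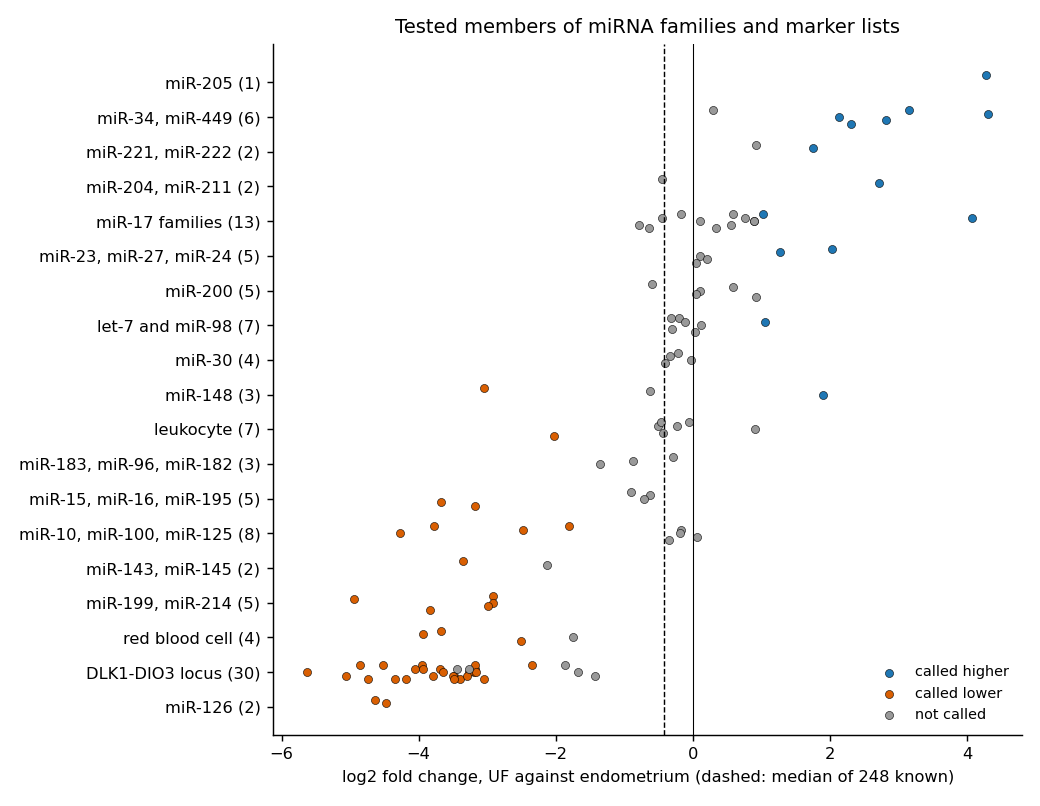
Log2 fold change of UF against endometrium (horizontal axis) for each tested member of 19 miRNA families and marker lists, with the number of tested members in parentheses. Blue points were called higher in UF, orange points lower and grey points not. Lower were 25 of 30 members of the DLK1-DIO3 locus and 5 of 5 of miR-199 and miR-214, beside 25.8% of the known miRNAs. The miR-200 members lay around 0.

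Among families of epithelium, the miR-200 family, which holds cells in the epithelial state by repressing ZEB1 and ZEB2, had no call. None of its 5 tested members passed the thresholds, and their median log2 fold change was 0.11. The members ran from −0.59 for miR-141 to 0.92 for miR-429. With edgeR's own filter, known miRNAs alone, thinned libraries or the endometrium of mare 4 left out, 1 member was called higher. In cyclic mares 1 of 5 was higher, with a median of 0.47. miR-200c had 38136, 23440.0, 19490.0, 22979 and 17242 CPM in UF and 24723, 21949.8, 25843, 24299 and 20929 CPM in the endometrium, with UF of mare 1 the highest and the groups overlapping. miR-200b (log2 fold change 0.11, SE 0.22, FDR 0.739) and miR-200a (log2 fold change 0.58, SE 0.24, FDR 0.0707) overlapped too. The cluster of miR-183, miR-96 and miR-182, known from epithelial and sensory cells, had no call among its 3 members. miR-182, the most abundant of them, ranged between 1354 and 3209.9 CPM in UF and between 1734 and 2996 CPM in the endometrium (log2 fold change −0.28, SE 0.28, FDR 0.454). miR-96 (log2 fold change −1.35, SE 0.54, FDR 0.0632) passed the thresholds without UF of mare 1, with a log2 fold change of −1.90, while miR-183 was not called (log2 fold change −0.87, SE 0.55, FDR 0.228). miR-96 passed them as well with DESeq2, with the likelihood ratio test, with near-identical predicted miRNAs merged, and without UF of mare 1 and the endometrium of mare 5.

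miR-126, made from an intron of the endothelial gene EGFL7, was lower in both arms. miR-126-3p stood at 7.36, 42.3, 19.3, 49.5 and 150.2 CPM in UF of mares 1 to 5 and at 1426, 1062, 902, 1271 and 1745 CPM in their endometrium. UF was far below in every mare, and within UF mare 5 was highest and mare 1 lowest. The mean was 23.8-fold lower in UF (log2 fold change −4.64, SE 0.55, FDR 4.14e-05). miR-126-5p stood at 0, 101, 38.7, 124 and 100.1 CPM in UF and at 1498, 1079.9, 1024, 975 and 3175 CPM in the endometrium, where mare 5 was highest (21.3-fold lower, log2 fold change −4.47, SE 0.63, FDR 0.00014). Without UF of mare 5 the log2 fold change of miR-126-3p was −5.67, and without UF of mare 1 and the endometrium of mare 5 that of miR-126-5p was −3.68.

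miRNAs of mesenchymal and smooth muscle cells were lower as well. All 5 tested members of the miR-199 and miR-214 list were lower (beside 25.8% of the known miRNAs), with a median log2 fold change of −2.99, and so they were in every alternative run. miR-199a-3p had 88.3, 1707, 438, 1485 and 1902 CPM in UF and 9519, 5209, 10124, 6358 and 10972 CPM in the endometrium (7.50-fold lower, log2 fold change −2.91, SE 0.59, FDR 0.00135). Mare 1 was lowest in UF and mare 3 second lowest, with the other mares several times higher. miR-199b-3p had nearly the same counts (Bray-Curtis dissimilarity 0.0011), so the pair is a single measurement here. miR-199b-5p had 0, 67.6, 19.3, 61.9 and 110.1 CPM in UF and 301, 253, 286, 514 and 621 CPM in the endometrium (log2 fold change −2.99, SE 0.62, FDR 0.00158). Its log2 fold change was −3.64 without UF of mare 5. miR-199a-5p had 3 reads in all UF libraries against 290 in the endometrium, and miR-214 had 6 against 296.

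miR-143, abundant in smooth muscle and fibroblasts, had 184, 2384, 464, 1460.2 and 2363 CPM in UF and 8559, 6718, 8665, 10813 and 34984 CPM in the endometrium (10.2-fold lower, log2 fold change −3.35, SE 0.66, FDR 0.00122). The endometrium of mare 5 stood several times above the other biopsies, and without it the log2 fold change was −2.70, or −2.37 without UF of mare 1 as well. miR-145, from the same cluster, had only 10 reads in UF and 149 in the endometrium and was not called (log2 fold change −2.13, SE 0.82, FDR 0.0541). Without UF of mare 5, which held 7 of the 10 reads, it was called with a log2 fold change of −3.74, and without the endometrium of mare 2 with one of −2.44. It was called with the mare as block too (−2.30, FDR 0.0121) and under 8 other alternatives, DESeq2 among them. Muscle miRNAs, listed for the myometrium, were rare. The 8 listed miRNAs summed to between 0 and 2 reads per UF library and between 6 and 55 reads per endometrial library. Of them miR-1 had 1 read in UF and 73 in the endometrium (FDR 0.00782), with 40.4, 11.9, 20.4, 16.8 and 145 CPM in the biopsies of mares 1 to 5, so that the biopsy of mare 5 was highest here too.

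Of the lists, the one with the most decreases was that of the imprinted DLK1-DIO3 locus, a long run of miRNA genes that are expressed from the maternal chromosome and are abundant in placenta, brain and mesenchyme. Of its 51 listed miRNAs, 40 had a read and 30 passed the filter, which asked for at least 1 CPM in 5 libraries. Of those 30, 25 were lower (beside 25.8% of the known miRNAs), none higher and 5 were not called, with a median log2 fold change of −3.48. The 5 biopsies alone could carry a miRNA through the filter, so these counts describe the members that passed and no others. Of the 40, 18 had no read in UF, and 9 of these were tested, 7 of them lower. Of the 21 tested members with a read in UF, 18 were lower and the median was −3.30. Their fitted changes depend on the prior count, and with these 9 set to the bound from 3 reads the median was −3.17. With the mare as block 22 of the 30 were lower, without UF of mare 1 and the endometrium of mare 5 20 were, and with equal depth 13 of the 18 that could then be tested. The summed level of the list was 59.4, 686, 236, 409.7 and 1061 CPM in UF of mares 1 to 5 and 7029, 3648, 5268, 3567 and 6959 CPM in their endometrium. No UF library reached the lowest biopsy, and mare 1 was lowest and mare 5 highest in UF.

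miR-379, at the start of the larger cluster, had 7.36, 169, 12.9, 86.6 and 130.2 CPM in UF and 1880.2, 806, 1747, 743 and 1334 CPM in the endometrium (16.0-fold lower, log2 fold change −4.05, SE 0.62, FDR 0.000221). miR-127, which is antisense to the imprinted gene RTL1, had 14.7, 152, 32.2, 24.7 and 200.3 CPM in UF and 1638, 824, 1269, 1019 and 1752 CPM in the endometrium (15.3-fold lower, log2 fold change −3.95, SE 0.58, FDR 0.000165). In both, UF of mares 2 and 5 stood above UF of mares 1 and 3. The log2 fold change of miR-127 was −4.70 without UF of mare 5. miR-411 (12.8-fold lower, log2 fold change −3.69, SE 0.56, FDR 0.00019) and miR-369-3p (13.0-fold lower, log2 fold change −3.80, SE 0.65, FDR 0.000488) followed with no overlap, and the latter was at −3.03 without UF of mare 1 and the endometrium of mare 5. Among the tested members the decrease was seen in both runs of genes of the locus. These runs were taken from the RefSeq annotation of assembly TB-T2T, used for neighbourhood only. The run from MIR379 onward held 43 mature miRNAs, of which 24 were tested and 19 lower. The separate run with MIR127 held 7, of which 4 were tested and 4 lower (beside 25.8% of the known miRNAs). These are members of the list above, counted again by position and under the same limit of the filter.

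Red blood cell miRNAs were lower in 3 of 4 tested members (beside 25.8% of the known miRNAs), with a median log2 fold change of −3.09. miR-451, which is cut by AGO2 in place of Dicer, had 29.4, 84.5, 90.3, 61.9 and 340.4 CPM in UF and 1007, 2909.6, 957, 2545 and 1709.8 CPM in the endometrium (15.1-fold lower, log2 fold change −3.93, SE 0.58, FDR 0.000165). UF of mare 5 was the highest of the UF libraries, and without it the log2 fold change was −4.90. miR-486-5p had 537, 414, 864, 470.2 and 2223 CPM in UF and 4755, 8369, 6046, 5386 and 968 CPM in the endometrium (5.66-fold lower, log2 fold change −2.50, SE 0.56, FDR 0.00257). The groups overlapped, since mare 5 had the highest level in UF and the lowest in the endometrium, the reverse of the other 4 mares. The log2 fold change was −3.31 without UF of mare 5. miR-144, the cluster partner of miR-451, had 1 read in UF and 45 in the endometrium, and its call was lost in thinned libraries (FDR 0.155). miR-486-3p was not called (log2 fold change −1.74, SE 0.70, FDR 0.0632), but with the mare as block it was (−1.71, FDR 0.0360). It was called as well with the likelihood ratio test, in the fits of 18 and 28 libraries, with near-identical predicted miRNAs merged, without UF of mare 4, without the endometrium of mare 5 (−2.05) and without UF of mare 1 and the endometrium of mare 5.

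Of the 7 tested leukocyte miRNAs 1 was lower and 6 were not called, with a median log2 fold change of −0.44, near the −0.43 of all known miRNAs. The member called was miR-223, a miRNA of neutrophils and other myeloid cells. It had 88.3, 84.5, 96.7, 74.2 and 50.1 CPM in UF and 404, 449, 184, 373 and 216 CPM in the endometrium, without overlap (4.13-fold lower, log2 fold change −2.02, SE 0.37, FDR 0.000705). miR-155, which is induced in activated lymphocytes and macrophages, had between 1339.9 and 2299 CPM in UF and between 1859 and 3308 CPM in the endometrium (log2 fold change −0.44, SE 0.25, FDR 0.184). miR-146b-5p, which dampens Toll-like receptor signalling, had 206, 338, 219, 483 and 260.3 CPM in UF and 1893, 1499, 698, 733 and 1107 CPM in the endometrium (3.94-fold lower, log2 fold change −1.99, SE 0.36, FDR 0.000682), and was the member called of the 3 tested in its family.

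**Figure D3:**
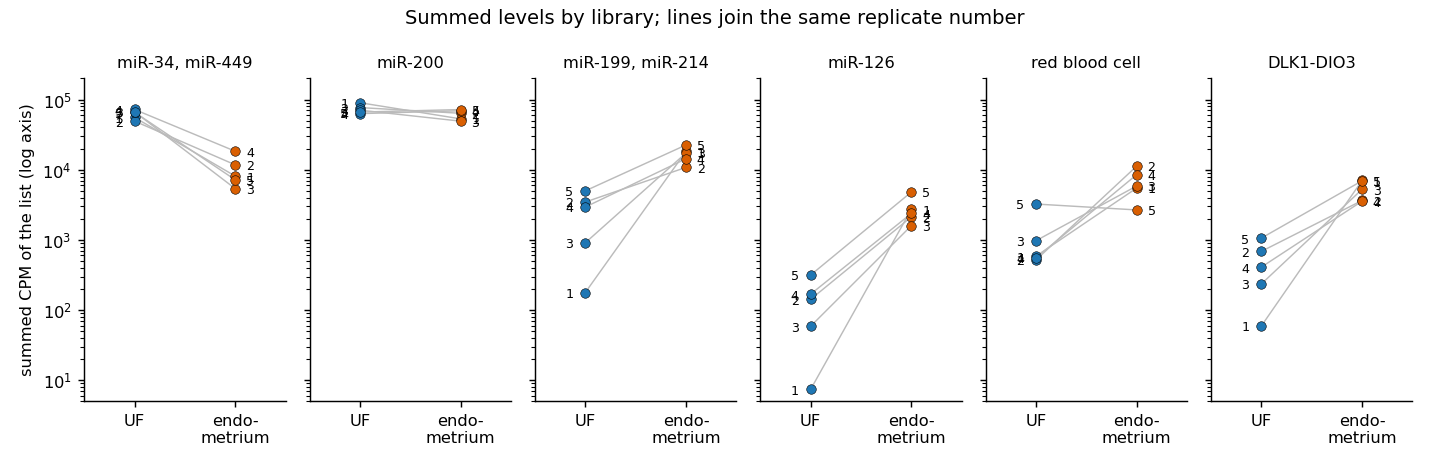
Summed CPM (log axis, scaled by library totals) of 6 lists in each UF and endometrial library; digits are replicate numbers and grey lines join UF and endometrium of the same number. The sum of miR-34 and miR-449 falls and those of miR-199 with miR-214, of miR-126 and of DLK1-DIO3 rise from UF to endometrium in every mare. In UF these 3 are lowest in mare 1.

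Some of the lists that were low in UF shared their lowest and highest UF libraries. The sum of miR-199 and miR-214 was 178, 3465, 909, 2940.3 and 5002 CPM in UF of mares 1 to 5 and between 10809 and 22560.4 CPM in the endometrium. The miR-126 sum was 7.42, 142, 58.9, 169 and 316 CPM in UF and between 1598 and 4816 CPM in the endometrium. In both lists, as in that of the DLK1-DIO3 locus, mare 1 was lowest in UF, mare 3 second lowest and mare 5 highest. The red blood cell sum was 586, 519, 975, 554 and 3246 CPM in UF, with mare 5 highest, and 5491, 11285, 5877, 8534 and 2674 CPM in the endometrium, with mare 5 lowest. The sum of miR-34 and miR-449 ran between 49275 and 72194 CPM in UF and between 5364 and 18321 CPM in the endometrium, and the miR-200 sum between 63036 and 90170.3 and between 49225 and 72060.1 CPM. Whether these sums have a part in the spread of single miRNAs was not tested.

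miRNAs of the HOX gene clusters gave different calls. miR-10b, from the HOXD cluster, had 530.1, 2054, 548, 1621 and 2894 CPM in UF and 24409, 36468, 35814, 12538 and 37662 CPM in the endometrium (19.2-fold lower, log2 fold change −4.27, SE 0.51, FDR 4.14e-05). miR-10a, from the HOXB cluster, had 83722, 31191, 22411, 23759 and 29959 CPM in UF and 25686, 71416, 54036, 31047 and 32068 CPM in the endometrium, and its groups overlapped. The ratio of miR-10b to miR-10a reads was between 0.00633 and 0.0966 in UF and between 0.404 and 1.17 in the endometrium. In cyclic mares it was between 0.0152 and 0.058 in UF and between 0.484 and 0.957 in the endometrium. The pair is closely related in sequence, and how reads of the pair were separated is not given in the sources used here. miR-196a was low with 5 reads in UF against 508 in the endometrium (FDR 0.000635). miR-196b, from the HOXA cluster, had 58.9, 423, 45.1, 384 and 621 CPM in UF and 4133, 1681, 3265, 2289.7 and 3022 CPM in the endometrium (log2 fold change −3.26, SE 0.59, FDR 0.00065), or −3.87 without UF of mare 5. In the list of miR-10, miR-99, miR-100 and miR-125, 4 of 8 tested members were lower (beside 25.8% of the known miRNAs) and none higher. Among the rest was miR-125a-5p (log2 fold change −0.35, SE 0.36, FDR 0.486). UF of mare 1 was the highest of miR-125a-5p, and without it the log2 fold change was −0.84 (SE 0.27, FDR 0.0238), past the FDR but short of the fold.

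Ratios of other close relatives do not depend on the scaling. The pairs given here were chosen after the values were seen and are given without a test. The ratio of miR-23a to miR-23b was between 0.460 and 0.644 in UF and between 0.256 and 0.505 in the endometrium, so that the groups overlapped. In the other 3 pairs they did not. Reads of miR-92b were between 1.63 and 4.40 times those of miR-92a in UF and between 0.121 and 0.356 times in the endometrium. Reads of miR-211 were between 0.0348 and 0.0844 times those of miR-204b in UF and between 0.00409 and 0.014 times in the endometrium. miR-148a was between 0.993 and 2.60 times miR-148b-3p in UF and between 5.13 and 16.0 times in the endometrium. miR-148a itself had 1023, 2308, 993, 2314 and 2593 CPM in UF and 8372, 9258, 19092, 12030.2 and 27183 CPM in the endometrium (8.23-fold lower, log2 fold change −3.04, SE 0.40, FDR 9.03e-05). Of the arms of miR-148b, miR-148b-5p was higher in UF (log2 fold change 1.90, SE 0.48, FDR 0.00567) and miR-148b-3p was not called (log2 fold change −0.62, SE 0.28, FDR 0.0973).

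miR-9a, best known from the nervous system, had 44.2, 228, 90.3, 74.2 and 30.0 CPM in UF and 2399, 705, 2332, 1311 and 1330.2 CPM in the endometrium (17.3-fold lower, log2 fold change −4.09, SE 0.52, FDR 7.16e-05). UF of mare 2 was the highest of the UF libraries, and without it the log2 fold change was −4.73. miR-195, a member of the miR-15 and miR-16 family that restrains the cell cycle, had 7.36, 186, 25.8, 124 and 180.2 CPM in UF and 1604, 1065, 1655, 639 and 1543 CPM in the endometrium (12.4-fold lower, log2 fold change −3.68, SE 0.60, FDR 0.00032). Its cluster partner miR-497 was lower too, and the other 3 of 5 tested family members were not called. Of these, miR-16 (log2 fold change −0.71, SE 0.20, FDR 0.0122) and miR-15a (log2 fold change −0.90, SE 0.33, FDR 0.0412) lay below the endometrium in all 5 mares at less than the required fold. Over the alternatives the log2 fold change of miR-15a reached −1.10. In the family 3 members were lower in the fits of 18 and 28 libraries, without a low-count filter and in some fits with libraries left out. miR-100 had 9 reads in UF, a mean under the level of 3 reads, and 400 in the endometrium, where it stood at 146, 169.6, 320.4, 222 and 259 CPM, and was called lower (FDR 8.41e-05). Its neighbour in the genome is a let-7a gene, and let-7a was not called as given above. let-7a is made from several genes, so its reads cannot be assigned to this one. The same held for miR-99a, which was lower, beside let-7c. Of the 7 tested members of the let-7 list, the member called was miR-98 (higher, log2 fold change 1.05, SE 0.27, FDR 0.00649), whose fold fell under the limit in 5 of the other alternatives and on leaving out UF of mare 3, 4 or 5 or the endometrium of mare 2, 4 or 5 (log2 fold change 0.88 to 0.96).

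The remaining lists showed few calls. None of the tested members was called in the families miR-30 (4 tested), miR-29 (3), miR-26 (1), miR-181 (2) and miR-132 with miR-212 (2), in the X-linked miR-362 cluster (9), and among miRNAs used as references in body fluids (7). Of the last, miR-191a was above the endometrium in all 5 mares (log2 fold change 0.96, SE 0.29, FDR 0.0171) and miR-103 was below (log2 fold change −0.67, SE 0.29, FDR 0.077), both short of the thresholds. miR-181a passed the FDR but not the fold (log2 fold change 0.81, SE 0.24, FDR 0.0151). With known miRNAs alone, 1 member each of the miR-181, miR-132, miR-362 and body fluid lists was called higher. For the body fluid list this also held with library totals, filterByExpr, thinned libraries and without UF of mare 2, 3 or 4. For miR-132 with miR-212 it held with library totals, filterByExpr and without UF of mare 4, and for miR-181 with thinned libraries. Of 3 tested members each in the families miR-130 with miR-301 and miR-192 with miR-194 and miR-122, 1 was lower (miR-130a and miR-122), as was 1 of 2 of the X-linked miR-506 cluster (miR-506a). With known miRNAs alone and with thinned libraries, 2 members of the list of miR-192, miR-194 and miR-122 were higher and none lower. The calls of miR-122 (FDR 0.0463) and of miR-506a (FDR 0.0134, no read in UF) were lost with the mare as block (FDR 0.0998 and 0.0550) and with DESeq2. That of miR-122 was also lost with library totals, with known miRNAs alone, in the fit of 18 libraries, without UF of mare 1 and the endometrium of mare 5, and in 7 of the 10 fits without 1 library, those without UF of mare 1, 2, 3 or 5 or the endometrium of mare 1, 2 or 5.

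Some miRNAs were found on one side only. A total of 11 known miRNAs were called lower and had no read in any UF library. The most counted in the endometrium were miR-450b-5p with 69 reads, miR-193a-5p with 63 and miR-656 with 43. Against the level of 3 reads per UF library, miR-450b-5p was at least 1.38-fold lower in UF and miR-193a-5p at least 1.20-fold. The endometrial level of the other 9 was below what 3 reads are worth in UF, so a bound per library cannot be given for them. The absence of reads from all UF libraries together was not used for a bound. The bounds given here are therefore loose, and the lack of one for the other 9 does not mean that the pooled depth sets none. In the other direction, miR-137, chosen after its values were seen, had 28 reads in UF of 4 mares and 1 read in the endometrium (FDR 0.000597).

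Predicted miRNAs were merged where their counts were nearly identical (Bray-Curtis dissimilarity of at most 0.05), which left 48 testable groups. Of these, 14 (29.2%) were called, 9 (18.8%) higher and 5 (10.4%) lower. The groups led by pred-miR-126 (2 members) and pred-miR-11 (4 members) rose most among the called groups that averaged 100 CPM or more. The first member of the former, fitted singly as pred-miR-126, had 36.8, 270.5, 64.5, 619 and 461 CPM in UF and 12.4, 5.95, 2.04, 67.2 and 14.2 CPM in the endometrium (log2 fold change 3.83, SE 0.88, FDR 0.00326). pred-miR-11 had 169, 237, 83.8, 24.7 and 360.5 CPM in UF and 12.4, 20.8, 16.3, 20.2 and 3.55 CPM in the endometrium (log2 fold change 3.52, SE 0.63, FDR 0.000634). These predicted names have no link to known miRNAs of the same number.

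UF and endometrium were also compared in the cyclic libraries, which are other samples of the same mares and reached down to 62087 reads in UF and 61836 in the endometrium. Of 328 miRNAs tested there, 101 (30.8%) were called, 39 higher and 62 lower in UF. Of the 88 known miRNAs called in pregnant mares, 82 were tested in cyclic mares. All 82 had the same sign, and 63 were called in the same direction. miR-34c (log2 fold change 2.43, FDR 0.000463), miR-92b (log2 fold change 4.16, FDR 0.000154), miR-205 (log2 fold change 3.81, FDR 0.000488), miR-126-3p (log2 fold change −5.47, FDR 1e-05), miR-143 (log2 fold change −4.27, FDR 1e-05) and miR-10b (log2 fold change −5.40, FDR 1.08e-05) were among them. By list, 5 of 6 tested members of miR-34 and miR-449 were higher in cyclic UF. Lower were 5 of 5 of miR-199 and miR-214, 2 of 2 of miR-126 and 25 of 29 of the DLK1-DIO3 locus. Over the 242 known miRNAs tested in cyclic mares, 20 were higher and 60 lower. The 4 cyclic biopsies alone could carry a miRNA through the filter here too.

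**Figure D4:**
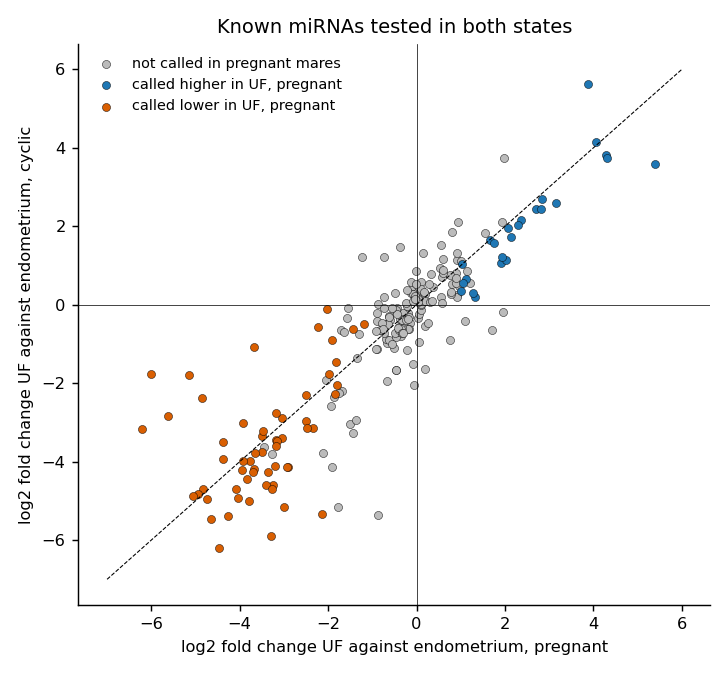
Log2 fold change of UF against endometrium in pregnant (horizontal axis) and cyclic mares (vertical axis) for the known miRNAs tested in both; the dashed line marks equal values. All 82 miRNAs called in pregnant mares, blue or orange, have the same sign in cyclic mares.

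The difference between the pregnant and the cyclic contrast was tested as an interaction in 18 libraries. None of 415 miRNAs passed an FDR of 0.05 with edgeR's quasi-likelihood test (0%; smallest FDR 0.126), while 26 had an unadjusted p under 0.05. DESeq2 called none as well, with 15 at an unadjusted p under 0.05. The median SE of the interaction was 1.07 on the log2 scale and 0.545 for known miRNAs with a mean of at least 100 CPM. The likelihood ratio test called 7 predicted miRNAs, and with the mare as block 5 were called. In all 7 the log2 fold change of UF against endometrium was lower in pregnant than in cyclic mares. The quasi-likelihood test called none either when near-identical predicted miRNAs were merged. Merging was not run with the likelihood ratio test or with a block. pred-miR-28, which stands for 5 of them, had 21, 12, 41, 3 and 3 reads in UF of pregnant mares 1 to 5 and 86, 48, 132 and 36 reads in UF of cyclic replicates 1 to 4. Scaled by library totals, it was between 36.2 and 268 CPM in pregnant UF. In UF of cyclic replicates 1 to 4 it was 493, 212, 2126 and 185 CPM, so the groups overlapped and the shallowest library was far the highest. pred-miR-28 had between 1 and 10 reads in the endometrium of pregnant and between 0 and 2 in that of cyclic mares. Its interaction was −4.65 (SE 1.34, FDR 0.126) with the mare as block −4.26 (FDR 0.0341), and with the mare within compartment as block, which called 7 miRNAs, −4.17 (FDR 0.00241). The other 2 called with the likelihood ratio test, pred-miR-131 and pred-miR-132, had nearly identical counts and form 1 merged group. Each had an interaction of −3.01 (FDR 0.126), of −3.12 (FDR 0.196) with the mare as block and of −3.57 (FDR 0.00241) with the mare within compartment as block. Among known miRNAs, miR-223 had a log2 fold change of −2.02 in pregnant and −0.10 in cyclic mares, with an interaction of −2.40 (FDR 0.717). In UF of cyclic replicate 3, the shallowest, it reached 886 CPM (55 reads, scaled by library totals), against between 82.1 and 126 CPM in the other cyclic UF libraries.

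Levels in the conceptus, set on a scale common to the 28 libraries, showed where the miRNAs high in UF stood there. miR-34c had a median of 40122 CPM in pregnant UF, 24876 in cyclic UF, 4639 in pregnant endometrium, 149.6 in the embryo and 302 in YS fluid. For miR-92b the medians were 21566, 42879, 2072, 128 and 705 CPM in the same order. On this scale every embryo and YS fluid library lay below every UF library in both miRNAs. These differences were not tested, and 3 reads were worth 67.0 to 106 CPM in an embryo library and 206 to 689 CPM in one of YS fluid, so the low levels there are not resolved. The miR-302, miR-367 and miR-371 to miR-373 families of pluripotent cells were at or near 0 in UF. They summed to between 0 and 2 reads per library in pregnant UF and between 0 and 4 in cyclic UF, against between 339 and 1885 reads in the embryos and between 159 and 3818 in YS fluid. Their sum was a median of 8.37 CPM in pregnant UF and 11.4 CPM in cyclic UF, beside 40967 CPM in the embryo and 61042 CPM in YS fluid. None of these 8 miRNAs passed the filter for the test.

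**Figure D5:**
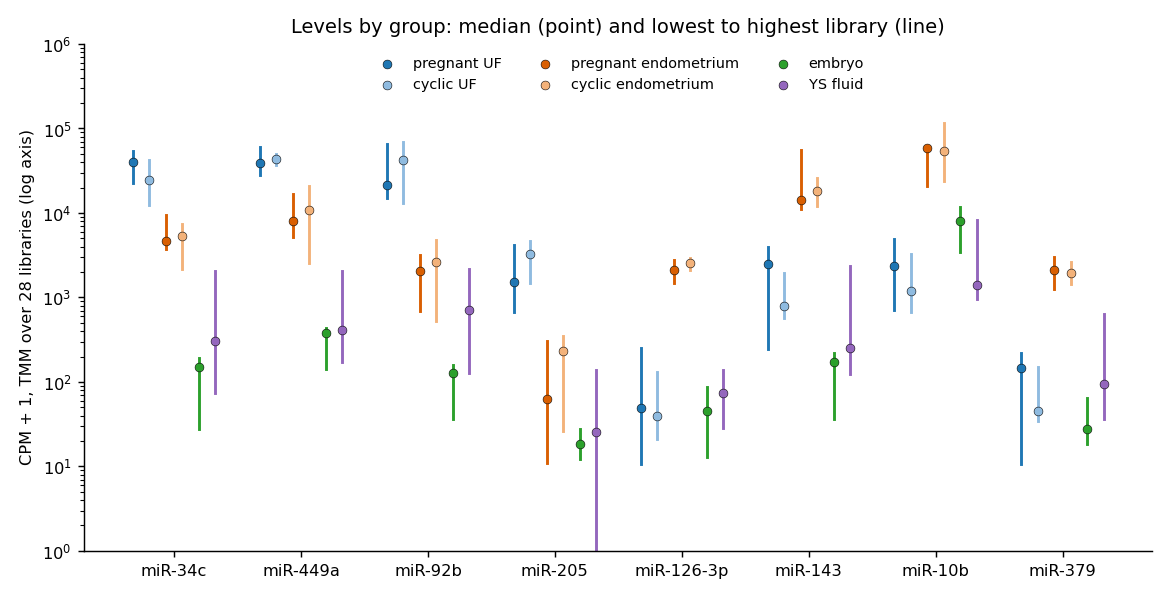
CPM plus 1 (log axis, TMM over 28 libraries) of 4 miRNAs higher and 4 lower in UF, by group. Points are medians and lines run from the lowest to the highest of the 4 or 5 libraries; the medians of miR-34c, miR-449a, miR-92b and miR-205 are highest in UF of both states. Levels of a few reads in embryo and YS fluid are not resolved.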

How the data were processed

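Small RNA of 28 samples was sequenced by the authors from libraries of a miRNA kit. Per the paper's methods, adapters were removed with cutadapt 1.11, reads shorter than 17 bases or with a quality under 20 were dropped, and known and predicted mature miRNAs were counted with miRPro, miRBase and the EquCab2.0 assembly. The deposited values are raw read counts per mature miRNA, not normalized. How reads matching several miRNAs were counted, and whether strand was used, is not given in the sources used here. The fluid and the tissue RNA came from different extraction kits.

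Here the known and predicted tables were joined, and miRNAs with at least 1 CPM in 5 of the 10 pregnant libraries were tested with edgeR 4.0.16 (R 4.3.3) on TMM-normalized counts by the quasi-likelihood test with Benjamini-Hochberg adjustment. Calls needed an FDR of at most 0.05 and a log2 fold change of at least 1 in size. SE is the log2 fold change over the root of its F statistic. The 8 cyclic libraries were fitted alike, and the interaction used 18 uterine libraries with 1 CPM in at least 4 and FDR alone. The common biological coefficient of variation was 45.6%. Sums of lists are CPM of library totals. Depth was between 79173 and 590593 reads in the pregnant libraries. The level of 3 reads covers counting error only, since reads copied by PCR are not independent molecules. In simulated counts of this comparison (342.7 miRNAs tested on average), 200 carried a log2 fold change of 2 in size, as many up as down. Of these 74.5% were recovered, and 2.99% of calls were false. The miRNAs were drawn independently with the common spread. The simulation therefore does not cover an unequal split, outlying libraries or errors of normalization.

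The same 5 mares supplied UF and endometrium, and the replicate number was taken as the mare from the study's design. Deviations of same-numbered samples correlated by −0.144 on average over 5 pairs (between −0.423 and 0.128) and those of different numbers by 0.0278 over 20, so a fit with the mare as block was an alternative. Samples of a group came from separate mares.

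Named miRNAs were the 10 known ones called in each direction with the largest change, a mean of at least 100 CPM and no overlap, the 10 most abundant of each compartment, up to 3 of the highest members of each of 31 lists, up to 3 merged predicted groups in each direction, and 3 of those with 0 reads in UF. Of the list members some are given by count only. miR-34a, miR-96, miR-98, miR-137, miR-144, miR-196b, miR-199a-5p, miR-214, miR-221 beside miR-222, the ratios and the interaction of miR-223 were chosen after their values were seen. The members and lists were chosen with earlier results of these data known. Neighbouring genes lay within 10000 bases of each other in RefSeq's TB-T2T annotation, to which 679 of 690 known miRNAs were matched. Alternatives were the likelihood ratio test, DESeq2 1.42.0, other scalings and filters, the block, larger fits, merged predicted miRNAs, known miRNAs alone, thinned libraries, FDR alone and leaving out each library.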

Additional observations from a re-analysis of the deposited data

Results flagged for a closer look

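In 156 sets of 5 values (75 miRNAs in UF and in endometrium, and library measures), 21 single samples lay farther from the rest than Dixon's critical value allows. That value is set to flag about 1 in 20 sets of independent normal values. The sets here share their 10 libraries, so the count is no test of an excess. Where the other libraries of a group had no read, a single read is always flagged. UF of mare 1 was apart with 49032 CPM of miR-92b, 83722 of miR-10a, 3209.9 of miR-182, 7369.5 of miR-191a and 1767 of miR-125a-5p on the high side or, for miR-34b-5p, with 604 CPM on the low side. UF of mare 5 was apart with the highest levels of miR-451 (340.4 CPM), miR-486-5p (2223 CPM), miR-145 (70.1 CPM) and miR-1 (10.01 CPM, a single read). The endometrium of mare 5 was apart with the highest levels of miR-143 (34984 CPM), miR-126-5p (3175 CPM), miR-199a-5p (337 CPM), miR-1 (145.4 CPM) and miR-137 (3.55 CPM, a single read).

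The other samples were apart in 1 measure each or in few reads. UF of mare 2 had 1175 CPM of miR-34a and 8.45 CPM of miR-144, the latter a single read. The endometrium of mare 2 had 161 CPM of miR-183, that of mare 4 had 6872 CPM of miR-221 and 175 CPM of miR-106a, and that of mare 3 had the most reads, 590593. No explanation of these values was tested.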

How the results depend on the processing

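The count of 121 called miRNAs lay between 104 and 128 when single libraries were left out, with 42 to 53 higher and 62 to 79 lower, and was 104 without UF of mare 3. It was 75, of which 38 were lower, with edgeR's filterByExpr, which left 171 miRNAs to test. With libraries thinned to the smallest 47 were lower, of 282 tested. With the mare as replicate block 117 were called, and 83 of the 88 known miRNAs were called in the same direction. With 1 library left out, 78 (without UF of mare 3) to 86 of them were, and over the other settings 80 (DESeq2) to 88 (likelihood ratio test) where all 88 were tested. None of the 88 changed sign in any of these. The interaction counted 7 miRNAs with the likelihood ratio test, 5 with the mare as replicate block and 7 with the mare within compartment as replicate block, against 0 in each of the 18 fits without 1 library. The cause of these changes was not tested.

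Among 75 named miRNAs, 694 of 750 values with 1 library left out and 944 of 1033 values under the other alternatives kept their direction and side of the threshold. A call was lost in 23 and 22 values, for miR-122, miR-98, miR-106a and miR-23b, for miR-506a in 2 and, once each, for miR-222 in the fit of 28 libraries and miR-144 in thinned libraries. The sign turned in small differences that were not called. In thinned libraries the log2 fold change was 0.035 for let-7a, 0.13 for let-7c, 0.052 for miR-26a, 0.13 for miR-10a and 0.026 for miR-182. With library totals let-7c was at 0.031, and with known miRNAs alone let-7c was at 0.052 and miR-26a at 0.019. let-7f was at −0.029 with DESeq2 and with RLE factors, and miR-200c at −0.00181 and −0.00191. Without a low-count filter let-7f was at −0.095, miR-200c at −0.12, miR-27b at −0.10 and miR-200b at −0.041. With the replicate block let-7f was at −0.013 and miR-200c at −0.011. With 28 libraries in 1 fit let-7f was at −0.085, miR-200c at −0.14, miR-27b at −0.12 and miR-200b at −0.074, and with 18 libraries at −0.083, −0.10, −0.086 and −0.026. Without UF of mare 1 and the endometrium of mare 5 miR-200c was at −0.21. With 1 library left out, let-7f ranged from −0.13 to 0.18, miR-10a from −0.65 (without UF of mare 1) to 0.027, miR-200c from −0.16 to 0.12, miR-27b from −0.093 to 0.12 and miR-200b from −0.045 to 0.19. The planned comparison of sequence features was not run, since sequences were not analysed here. The depth of UF limits how well decreases to a few reads can be sized.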
